A study of Mus musculus with 14 samples.

Results

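Granulosa cells (GCs) line the ovarian follicle, and after ovulation they become the progesterone-producing cells of the corpus luteum. Described here are 8 genes of luteal cells and of the Akr1c family of steroid-metabolising enzymes, chosen by name from the 55414 genes of the count table. They are Ptgfr, Akr1c18, Akr1c13, Akr1c12, Akr1c14, Akr1cl, Sfrp4 and Parm1. The choice was made with their levels in mutants and controls already known, so the differences between mutants and controls are given as a description and carry no test. The other question was whether the genes were high together in the same control libraries. This pattern was also known when the genes were chosen, so it too is described without a test.

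RNA-seq was performed on GCs released from antral follicles by puncturing the ovary, with about 50 cells pooled into each of 14 libraries. The mice were females fed chow until 12 weeks of age. The db/db group (4 libraries, B6.BKS(D)-Leprdb/J) lacked the functional long form of the leptin receptor, and the ob/ob group (3 libraries, B6.Cg-Lepob/J) lacked functional leptin. Both mutations act in the whole body from conception, and both groups were obese. Lean littermates were the controls, CT db (4 libraries) and CT ob (3 libraries). Wild type is the state the labels give for the controls, whereas their library names read as heterozygous, and this was not settled here. The stage of the oestrous cycle at collection was not given in the sources used here. Nothing said that the libraries of a group came from different mice, so the spread between them may be partly technical.

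Luteal cells make progesterone from cholesterol. Prostaglandin F ends this phase by binding its receptor, encoded by Ptgfr, and the enzyme encoded by Akr1c18 then turns progesterone into a metabolite that hardly activates the progesterone receptor. Other Akr1c enzymes reduce or oxidise steroids and prostaglandins at various positions. Sfrp4 encodes a secreted protein that binds WNT ligands, known in the rodent ovary from corpora lutea and from granulosa cells under luteinising hormone and prolactin. Parm1 encodes a mucin-like membrane protein first described in the prostate, where androgens control it.

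In GRCm39, Akr1c14 (chromosome 13, 4099002 to 4141081, plus strand), Akr1c18 (4182614 to 4200672, minus strand), Akr1c13 (4241149 to 4255602, plus strand) and Akr1c12 (4318168 to 4329432, minus strand) lay within 230.4 kb. Akr1cl shares the family name but lay on chromosome 1 (65033079 to 65075059, minus strand). Sfrp4 lay on chromosome 13 (19807274 to 19817164, plus strand), outside the cluster. Ptgfr was on chromosome 3 (151502139 to 151543267, minus strand) and Parm1 on chromosome 5 (91665474 to 91774753, plus strand).

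The first 75 bases of the coding sequences, 1 read long, show how far reads could tell the cluster's genes apart. The sequences come from the GENCODE transcripts (GRCm39), and capitals mark the bases that differ from Akr1c18 at the same place.
Akr1c18 (chr13:4200523-4200597, minus strand): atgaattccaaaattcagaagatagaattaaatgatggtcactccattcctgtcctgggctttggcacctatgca
Akr1c13 (chr13:4241226-4241300, plus strand): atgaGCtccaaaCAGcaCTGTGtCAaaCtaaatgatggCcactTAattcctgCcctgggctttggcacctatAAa
Akr1c12 (chr13:4329281-4329355, minus strand): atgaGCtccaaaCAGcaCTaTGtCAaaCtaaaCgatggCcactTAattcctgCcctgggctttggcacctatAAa
Akr1c14 (chr13:4109632-4109706, plus strand): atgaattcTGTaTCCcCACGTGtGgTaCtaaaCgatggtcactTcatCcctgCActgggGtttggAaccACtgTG
Akr1c13 and Akr1c12 each differed from Akr1c18 at 19 of these bases, and Akr1c14 at 26. Over the whole coding sequence, Akr1c18 was 74.0% identical to Akr1c13, 73.9% to Akr1c12, 76.0% to Akr1c14 and 77.6% to Akr1cl. Akr1c13 and Akr1c12 were 96.2% identical, with a longest identical run of 228 bases. Of the distinct windows of 75 bases in their transcripts, 205 were shared by Akr1c13 and Akr1c12, which was 14.25% of the windows of Akr1c13 and 14.87% of those of Akr1c12. Akr1c18 shared 0 of its 2948 windows with a transcript of any other gene, and Sfrp4 and Parm1 shared 0 as well. The division of reads between Akr1c13 and Akr1c12 is therefore uncertain, since the handling of reads with several matches is not given in the sources used here. Ptgfr shared 255 windows with an overlapping unclassified gene (Gm43618) that had 0 counts in every library.

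The stretches before the starts of Akr1c18 and Ptgfr are shown because both genes were lower in every db/db library than in CT db and were high in the same CT ob library. They are RefSeq promoters of GRCm38.p6 (250 bases ending at the start), and capitals mark matches to the C/EBP or SP1 motifs.
Akr1c18 (chr13:4150647-4150896, minus strand): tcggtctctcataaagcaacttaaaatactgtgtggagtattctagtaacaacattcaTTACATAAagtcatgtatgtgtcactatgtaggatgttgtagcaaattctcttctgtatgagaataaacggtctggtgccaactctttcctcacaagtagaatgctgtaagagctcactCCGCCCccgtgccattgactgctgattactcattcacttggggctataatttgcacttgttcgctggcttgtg
Ptgfr (chr3:151837529-151837778, minus strand): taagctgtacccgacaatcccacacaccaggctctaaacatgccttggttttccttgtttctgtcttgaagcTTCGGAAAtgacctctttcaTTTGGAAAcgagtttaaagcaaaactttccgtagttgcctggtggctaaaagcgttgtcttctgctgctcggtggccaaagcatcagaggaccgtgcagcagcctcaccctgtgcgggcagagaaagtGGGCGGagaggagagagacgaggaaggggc
RefSeq promoters were matched for 7 of the 8 genes, all except Sfrp4, and were searched over 300 bases, which include 50 after the start, on both strands. The C/EBP motif TTNNGNAA, bound by factors that rise in luteinising granulosa cells, was found in 5 of 7 promoters (Akr1c12, Akr1c14, Akr1c18, Akr1cl and Ptgfr) and in 40.7% of all 32851 promoters. The SP1 motif GGGCGG was found in Akr1c18 and Ptgfr and in 35.7% of all promoters. In Ptgfr a further SP1 match began 4 bases before the start and ran across it, and in Akr1c18 a further C/EBP match began 5 bases before the start, so both are left in lower case above. The core CAAGGNC bound by the NR5A receptors, which drive steroidogenic genes, was found only in Akr1cl among the 7, and in 17.8% of all promoters. The GATA motif AGATAA was also found in Akr1cl and in 11.2% of all promoters. The cAMP response core TGACG and the AP-1 motif TGANTCA were in 0 of 7, against 20.8% and 7.8% of all promoters. The only overlapping matches were a pair of C/EBP matches in Akr1c12. These matches are letters in a window and not measured sites.

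The libraries held 2204686 to 8367593 counts on genes, and levels are given as CPM, counts scaled to a common library total with edgeR's TMM factors. A count of 3, taken as the limit of detection, was worth 0.369 to 1.30 CPM. The db/db libraries were the shallowest (2204686 to 3059777 counts), so 3 counts were worth 0.938 to 1.30 CPM there. Lep had at most 3 counts and Lepr at most 17 in any library, so the labels could not be checked by the mutated genes. The granulosa gene Inha was at 3255 to 8009 CPM in all 14 libraries. The oocyte gene Gdf9 was at 1.13 to 339 CPM, so some libraries also held oocyte RNA. The ribosomal RNA gene Rn18s-rs5 took 10390 to 304553.5 CPM over all libraries and 56220.0 to 304553.5 CPM in CT ob. The lowest TMM factor was 0.803, in obHet_68. Per kb of exon, the mean levels in CT db ran from Akr1cl (437 CPM per kb) and Akr1c14 (237) down to Parm1 (7.23), Sfrp4 (6.36), Akr1c18 (6.11), Akr1c13 (4.66), Ptgfr (1.22) and Akr1c12 (0.209).

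**Figure D1:**
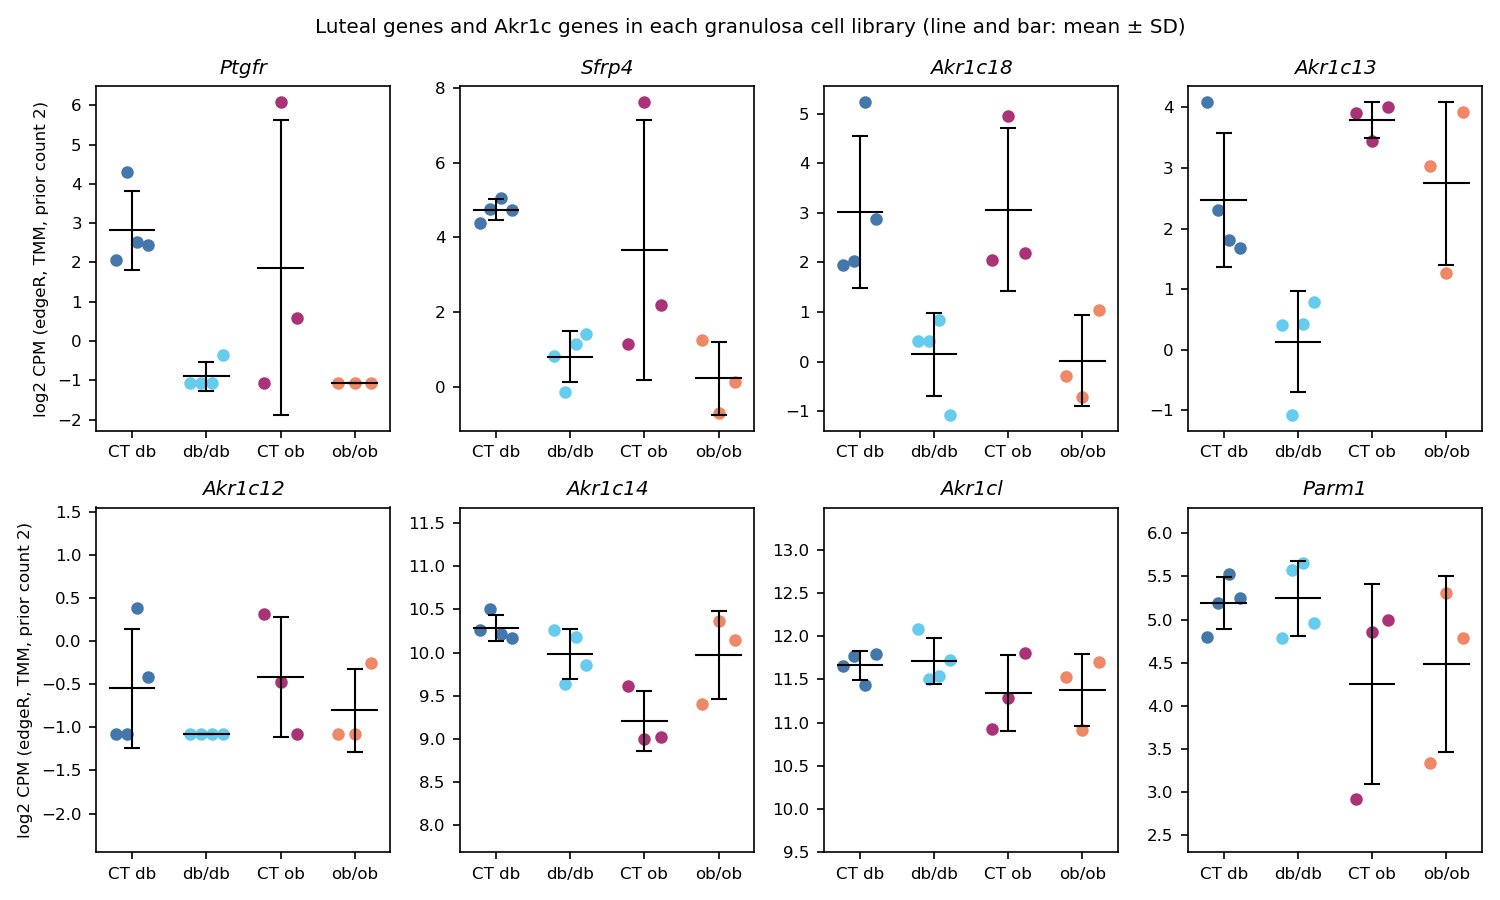
Each point is a library, with log2 CPM (prior count 2) on the vertical axis and the 4 groups on the horizontal axis, a line at the mean and a bar of 1 SD. Ptgfr, Sfrp4 and Akr1c18 had 1 CT ob library far above the rest, while Akr1c14 and Akr1cl overlapped between the mutants and controls of each model.

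Ptgfr encodes the receptor by which prostaglandin F reaches luteal cells. In CT db its counts were 13 (3.66 CPM), 90 (19.2 CPM), 19 (5.22 CPM) and 18 (4.91 CPM) in libraries het_37, het_51, het_69 and het_75. The db/db libraries had 0, 0, 0 and 1 count, so every one of them lay below every control. The counts pooled over the group, scaled for depth, gave a ratio of 91.7 between CT db and db/db (95% exact interval 16.2 to 3646, counting error only), and the log2 fold change in db/db was -5.96 (SE 0.975). In CT ob the counts were 0, 271 and 3 in obHet_60, obHet_65 and obHet_68, which was 0, 67.5 and 1.02 CPM. The ob/ob libraries had 0 counts each. Set against a floor of 3 counts per library, averaged over the group (0.434 CPM), the mean was at least 52.6-fold lower in ob/ob. This bound rests on obHet_65, without which the difference of mean log2 CPM shrank from -2.94 to -0.83, and the groups overlapped, since obHet_60 was at 0 as well.

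Akr1c18 encodes the enzyme that removes active progesterone. The 4 CT db libraries had 12 (3.38 CPM), 17 (3.62 CPM), 136 (37.4 CPM) and 25 counts (6.82 CPM), in the order of the libraries above. In db/db there were 2, 2, 3 and 0 counts, at most 1.30 CPM. In CT ob there were 19 (3.64 CPM), 123 (30.6 CPM) and 12 counts (4.08 CPM), and in ob/ob 2 (0.345 CPM), 1 (0.138 CPM) and 13 (1.6 CPM). The mutants therefore lay below the controls in both models without overlap, and each control group had 1 library far above the others, het_69 and obHet_65. The group means were 12.8 ± 16.5 CPM in CT db (SD, n = 4), 0.753 ± 0.544 in db/db (SD, n = 4), 12.8 ± 15.5 in CT ob (SD, n = 3) and 0.695 ± 0.791 in ob/ob (SD, n = 3). The log2 fold change was -4.11 in db/db (SE 1.01) and -4.11 in ob/ob (SE 1.10). The ratios of pooled counts were 17.8 (95% exact interval 8.46 to 44.8) and 16.7 (9.97 to 30.0). When single libraries were left out, the difference of mean log2 CPM lay between -3.24 and -2.14 in db/db and between -3.56 and -2.09 in ob/ob.

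Akr1c13, which encodes another hydroxysteroid dehydrogenase, is the next enzyme gene after Akr1c18 on the chromosome. Its counts in CT db were 59 (16.6 CPM) in het_37 and 21 (4.47 CPM), 11 (3.02 CPM) and 10 (2.73 CPM) in the others. The db/db libraries had 2, 0, 2 and 4 counts (0 to 1.25 CPM), all below the controls. The ratio of pooled counts was 8.27 (95% exact interval 4.04 to 19.7), and its counts were too low for the filter in this model. In CT ob it had 76 (14.6 CPM), 42 (10.5 CPM) and 46 counts (15.6 CPM), an even level. The ob/ob libraries had 45 (7.77 CPM), 14 (1.94 CPM) and 119 counts (14.7 CPM), and the groups overlapped, with a log2 fold change of -0.74 (SE 0.616). In ob/ob, Akr1c13 was thus at 1.94 to 14.7 CPM while Akr1c18 was at 0.138 to 1.6 CPM.

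Akr1c12, the near copy of Akr1c13, had 0 to 4 counts in all 14 libraries and 12 in all, so no fold is given. Akr1c19, the other enzyme gene between Akr1c14 and Akr1c12, had 0 to 13 counts. Further along the chromosome, Akr1c6 and Akr1c20 had 1 count in all and Akr1c21 had 13. Akr1e1, at the far end of the region, averaged 41.4 CPM in CT db, 36.7 in db/db, 48.0 in CT ob and 41.2 in ob/ob, and was the 1 gene of these 5 that passed the filter. Its log2 fold change was -0.18 in db/db (SE 0.209, adjusted p = 0.853) and -0.23 in ob/ob (SE 0.211, adjusted p = 0.786) by edgeR's quasi-likelihood test. The family members of the region therefore ranged from undetected to abundant along this stretch.

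**Figure D2:**
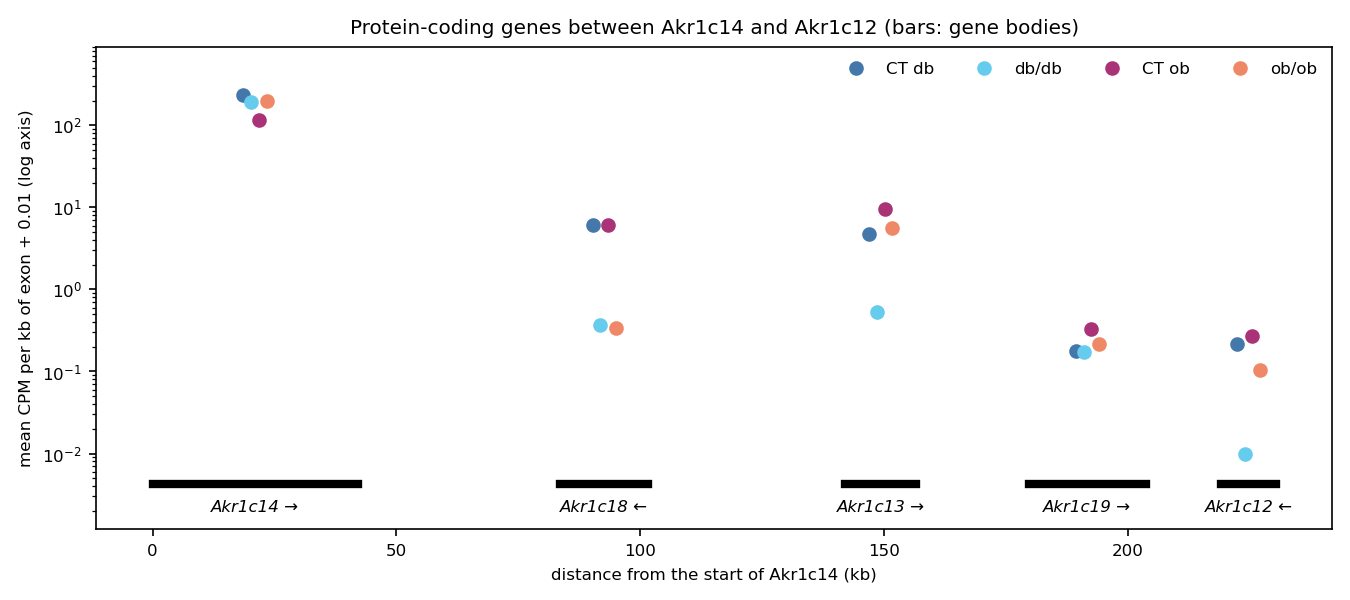
Mean CPM per kb of exon plus 0.01 (log axis) for the protein-coding genes between Akr1c14 and Akr1c12, against the distance from the start of Akr1c14 in kb, with 1 point per group, black bars for the genes and arrows for the strand. Akr1c14 was the highest in all groups, Akr1c18 was low in both mutants, and Akr1c13 was lowest in db/db.

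Akr1c14, which encodes a hydroxysteroid dehydrogenase acting on reduced steroids, was the most abundant gene of the cluster. It was at 1224, 1449.6, 1180.1 and 1148 CPM in CT db, and at 1225, 795, 1158 and 920.0 CPM in db/db (HOM_24, HOM_53, HOM_68 and HOM_81). The CT ob libraries had 784, 511 and 519 CPM, and the ob/ob libraries 675, 1321 and 1128 CPM (obHOM_106, obHOM_41 and obHOM_50). The groups of each model overlapped, and the log2 fold changes were -0.29 in db/db (SE 0.169) and 0.78 in ob/ob (SE 0.296). Whether these differed from each other was not tested. It shared 160 windows of 75 bases with the pseudogene Gm18857, which had 0 to 5 counts.

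Akr1cl was the most abundant of the 8 genes, at 3259 ± 362 CPM in CT db, 3408 ± 669 in db/db (SD, n = 4 each), 2670.4 ± 836 in CT ob and 2738 ± 727 in ob/ob (SD, n = 3 each). The groups overlapped in both models, with log2 fold changes of 0.06 (SE 0.174) and 0.03 (SE 0.309). Its annotated transcripts contain sequence of ribosomal protein pseudogenes. Of 9396 distinct windows of 75 bases, 11.08% were also in transcripts of other genes, which were Rpl10a and 2 of its pseudogenes. Rpl10a itself averaged 261 CPM in CT db, 286 in db/db, 293 in CT ob and 256 in ob/ob. These pseudogenes, Rpl10a-ps1 and Gm8550, overlap Akr1cl and had at most 21 and 83 counts in any library.

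Sfrp4, which encodes the WNT-binding protein, had 73 (20.5 CPM), 125 (26.6 CPM), 120 (33.0 CPM) and 96 counts (26.2 CPM) in CT db. The db/db libraries had 3, 1, 4 and 7 counts (0.430 to 2.19 CPM), all below the controls. The means were 26.6 ± 5.08 and 1.41 ± 0.750 CPM (SD, n = 4 each), and the log2 fold change was -4.16 (SE 0.344). No CT db library stood apart in this gene. In CT ob the picture was another, with 9 (1.72 CPM), 795 (198 CPM) and 12 counts (4.08 CPM). The ob/ob libraries had 11 (1.90 CPM), 1 (0.138 CPM) and 5 counts (0.616 CPM), and overlapped with the controls through obHet_60. The log2 fold change was -6.33 (SE 1.844) and rests on obHet_65. Without that library, the difference of the mean log2 CPM shrank from -3.43 to -1.44, the smallest among the libraries left out.

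Parm1 was at 27.3, 36.0, 45.6 and 37.7 CPM in CT db and at 27.3, 47.3, 49.8 and 30.6 CPM in db/db. In CT ob it was at 7.09, 28.7 and 31.3 CPM, and in ob/ob at 9.66, 39.3 and 27.2 CPM. The groups overlapped in both models, with log2 fold changes of 0.07 (SE 0.228) and 0.19 (SE 0.616). The low libraries were obHet_60 and obHOM_106, 1 in each group of the ob model.

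In all, 4 of the 8 genes (Ptgfr, Akr1c18, Akr1c13 and Sfrp4) lay lower in every db/db library than in every CT db library, beside 2.28% of the 11317 genes tested in that model. Akr1c13 did not pass the filter in that model, so it is not among those 11317 genes. In the ob model 1 of the 8, Akr1c18, lay lower in every ob/ob library than in every CT ob library, beside 7.5% of 12425 genes tested. The genes were chosen for this pattern, so nothing is read from these counts. The filter on low counts was passed by 6 of the 8 genes in each model, by 7 in the fit of all libraries, and never by Akr1c12. In bulk RNA of pooled cells, fewer cells that express a gene and less RNA per cell cannot be told apart.

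**Figure D3:**
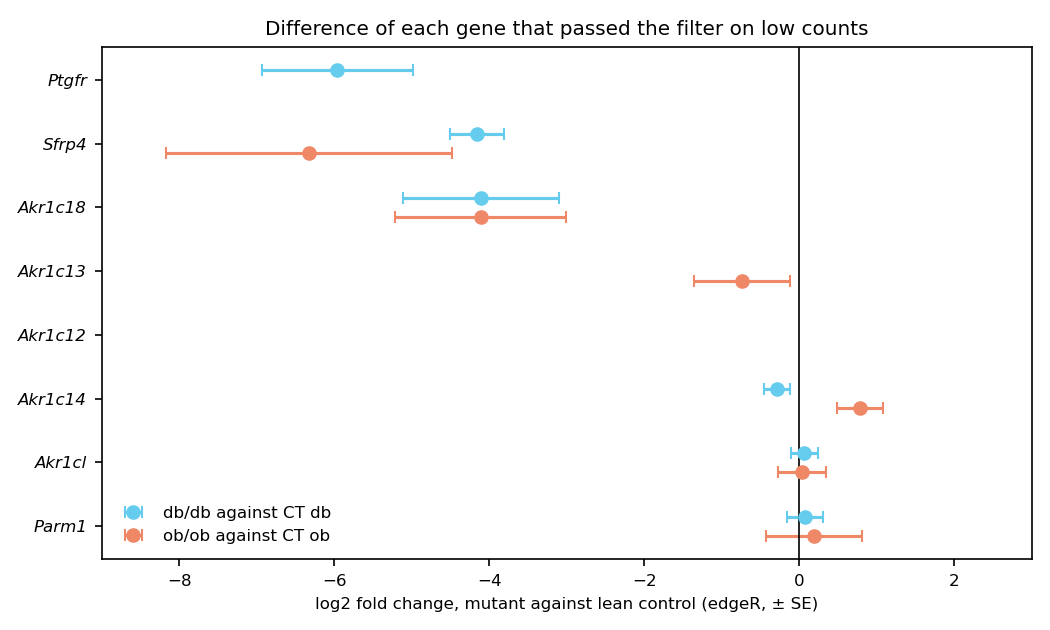
Log2 fold change of each gene against the lean controls of its model (edgeR, bars of 1 SE), for the genes that passed the filter on low counts in that model. Ptgfr, Sfrp4 and Akr1c18 lay between -6.33 and -4.11, Akr1c13 was at -0.74 in ob/ob, and Akr1c14, Akr1cl and Parm1 lay between -0.29 and 0.78.

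The libraries with the highest levels were compared next within each control group. In CT ob, Ptgfr, Akr1c18 and Sfrp4 were highest in the same library, obHet_65, at 66.2, 7.51 and 48.6 times the next library. Of all 12586 genes tested, 2.46% were highest in obHet_65 by at least 2-fold over the next. Akr1c13, Akr1cl and Parm1 were highest in obHet_68 by 1.07, 1.45 and 1.09 times, and Akr1c14 in obHet_60 by 1.51 times. In CT db the high library differed between genes. Ptgfr was highest in het_51 (3.67 times the next, beside 1.3% of all genes that were highest there by at least 2-fold). Akr1c18 was highest in het_69 (5.48 times, beside 1.53%) and Akr1c13 in het_37 (3.71 times, beside 0.985%). Sfrp4 was even, with het_69 highest at 1.24 times the next. So Ptgfr, Akr1c18 and Sfrp4 were high together in 1 CT ob library, and these genes had different high libraries, or none that stood apart, in CT db. This pattern was known when the genes were chosen, so nothing is read from the shares of all genes given beside it.

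The other luteal markers also differed between the control libraries. Lhcgr and Prlr, the receptors for luteinising hormone and prolactin, were highest in het_51 among CT db (67.7 and 134.6 CPM) and in obHet_65 among CT ob (19.9 and 135.3 CPM), which were the high libraries of Ptgfr. Cyp11a1, which makes the first steroid from cholesterol, was at 208 CPM in obHet_65 and at 5.75 and 45.2 CPM in obHet_60 and obHet_68. Of 15 luteal markers, 8 were highest in obHet_65 and 7 in obHet_68, where 27.1% and 40.1% of all genes were highest. In CT db, het_51 was highest for 5 (26.5% of all genes) and het_69 for 7 (25.1%). The library het_69, with the highest Akr1c18, was highest for 8 of 11 progesterone synthesis genes. They include Hsd3b1, the enzyme that completes progesterone, at 1024 CPM against 158 to 312 in the other CT db libraries. In CT ob, obHet_65, with the highest Akr1c18, was highest for 3 of these 11 genes and obHet_68 for 6. Hsd3b1 was at 401 CPM in obHet_65 and at 1279 in obHet_68.

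**Figure D4:**
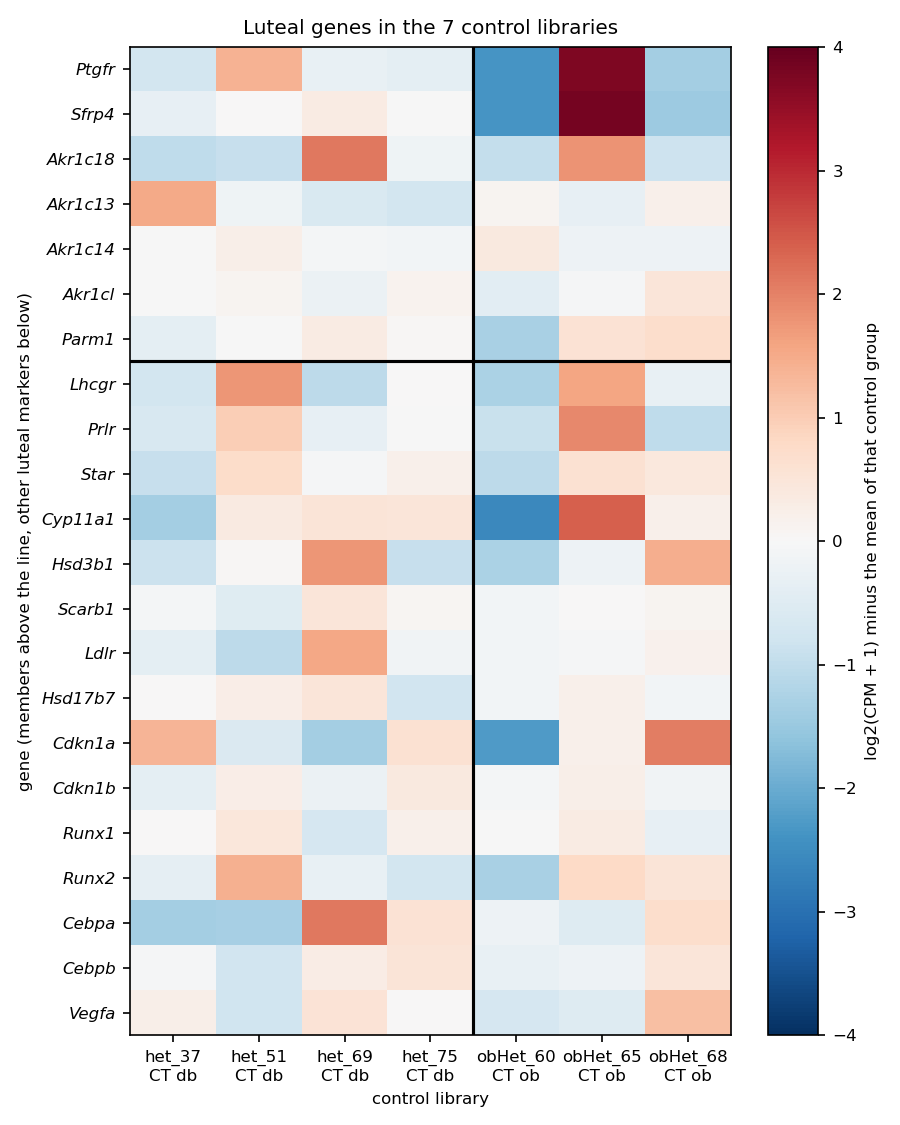
Log2(CPM + 1) of each gene in the 7 control libraries, as the difference from the mean of its control group, with members above the line and other luteal markers below it. obHet_65 was above the CT ob mean for Ptgfr, Sfrp4, Akr1c18, Lhcgr, Prlr and Cyp11a1, while the high CT db library was het_51 for Ptgfr, Lhcgr and Prlr and het_69 for Akr1c18, Hsd3b1 and Cebpa.

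Markers of other cell types differed between the control libraries too, and were high in some of the same libraries but not in all. The summed theca and stroma markers were 217 CPM in obHet_65 against 80.5 and 140.1 in the other CT ob libraries, and 5 of the 7 that passed the filter were highest there, while 2 of the 10 were at 0. Col1a1, a collagen gene too low for the filter, was at 13.5 CPM against 0.192 and 1.02. The endothelial sum was 46.6 CPM against 27.0 and 25.8, and the immune cell sum 23.7 against 2.49 and 13.3, with Ptprc, the marker of all leukocytes, at 1 count or 0.249 CPM. The granulosa sum was lowest in obHet_65 within CT ob, at 5877 CPM, close to obHet_60 (6070 CPM) and below obHet_68 (11042 CPM). In CT db the theca and stroma sum was 63.3 to 129 CPM, and it was 79.2 in het_51 and 89.8 in het_69. In het_51, with the highest Ptgfr, the endothelial and immune cell sums were 6.82 and 6.6 CPM. The library het_37, with the highest Akr1c13, had the lowest theca and stroma, endothelial and immune cell sums of CT db (63.3, 5.35 and 4.22 CPM). In het_69, where Akr1c18 was high, 4 of the 7 theca and stroma markers (Col1a2, Col3a1, Dcn and Acta2) and 3 of the 4 endothelial markers tested were the highest of CT db. Its endothelial sum (14 CPM, against 5.35 to 10.6) and immune cell sum (10.2 CPM, against 4.22 to 9.83) were also the highest of that group. All 8 oocyte markers were highest in het_51 within CT db (summed 225 CPM against 3.66 to 130 in the others) and in obHet_60 within CT ob (1045 CPM). The granulosa sum was highest in het_69, at 13298 CPM against 6491 to 9141 in the others. Among the mutants, the db/db library HOM_24 had the highest theca and stroma sum of all libraries, 405 CPM, with Ptgfr at 0 counts and Akr1c18 at 2. The part of these cells in the levels of the 8 genes was not tested.

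**Figure D5:**
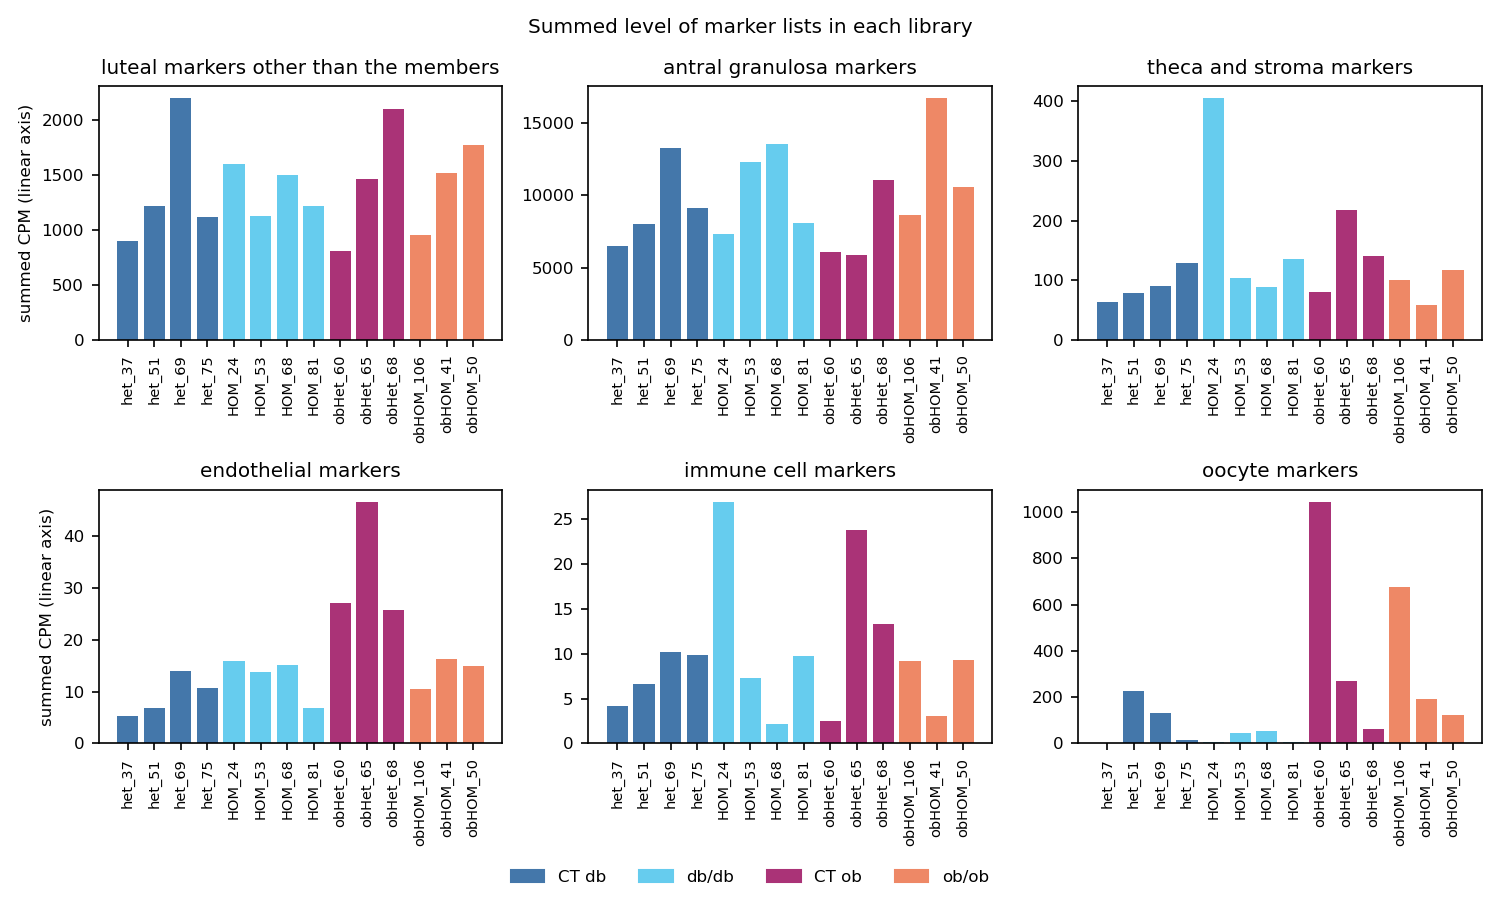
Summed CPM (linear axes from 0) of 6 marker lists in each of the 14 libraries, coloured by group. obHet_65 had the highest endothelial sum (46.6 CPM) and the highest theca and stroma sum among controls, and obHet_60 the highest oocyte sum.

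The pathway genes around these members showed little that passed a test in either model. A gene was called where edgeR's quasi-likelihood test, adjusted by Benjamini-Hochberg, gave a p of at most 0.05. This was 0.00884% of genes for db/db (1 gene, the member Sfrp4, from which nothing is read because it was chosen with this contrast known) and 0.0% for ob/ob. Of 12 progesterone synthesis genes, 11 were tested, and 0 were called in either model by edgeR or DESeq2. An unadjusted p under 0.05 was reached by 0 of 11 for db/db and by 1 of 11 for ob/ob, against 7.59% and 8.16% of all genes. That gene was Star, the carrier of cholesterol into mitochondria, with a log2 fold change of -1.74 in ob/ob (SE 0.556, edgeR adjusted p = 0.561). The median log2 fold change of the list was 0.16 in db/db and 0.05 in ob/ob, beside 0.01 and -0.04 for all genes. The 3 most abundant genes of the list were Hsd3b1, Scarb1 and Nr5a2.

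Genes for the use and metabolism of progesterone and other steroids (9 of 12 tested) gave 0 calls in either model by edgeR or DESeq2. Cyp17a1, the theca enzyme of androgen synthesis, had an unadjusted p under 0.05 in the db model, with a log2 fold change of 2.72 (SE 1.099, edgeR adjusted p = 0.608), carried by 256 CPM in HOM_24 against 9.96 to 21.5 in the other db/db libraries. The progesterone receptor gene Pgr had 14 counts in all libraries together. The most abundant genes were Hsd17b1, the granulosa enzyme of oestradiol synthesis, Pgrmc1 and Hsd17b10.

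Of 19 prostaglandin genes, 10 were tested for db/db and 11 for ob/ob, with 0 called by edgeR or DESeq2. Genes with an unadjusted p under 0.05 were Hpgd in the db model, and Pla2g4a and Ptger2 in the ob model. Hpgd, which inactivates prostaglandins, had a log2 fold change of -0.42 (SE 0.182). Ptger2, a receptor for prostaglandin E, had -1.67 (SE 0.472) and Pla2g4a, which releases arachidonic acid, 0.80 (SE 0.265). The edgeR adjusted p-values were 0.632, 0.539 and 0.561. Ptgs1 and Ptgs2, the cyclooxygenases, had 26 and 28 counts in all libraries together. Ptges3, Ptges and Hpgd were the most abundant.

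Of the 15 other luteal markers, 14 were tested for db/db and 15 for ob/ob, and 0 were called by edgeR or DESeq2. An unadjusted p under 0.05 was found for Vegfa in the db model (log2 fold change 1.11, SE 0.370, edgeR adjusted p = 0.557) and for Star in the ob model. Lhcgr had log2 fold changes of -1.21 in db/db (SE 0.741) and -0.83 in ob/ob (SE 0.890), and Prlr of -0.40 (SE 0.347) and -0.82 (SE 0.772), all with overlapping groups. The median of the list was -0.03 in db/db and 0.14 in ob/ob. The most abundant were Hsd3b1, Scarb1 and Runx1. Of the 4 other secreted frizzled-related genes, 1 was tested in each model and 0 were called by edgeR or DESeq2, with 0 at an unadjusted p under 0.05. Sfrp1 had 208 counts in all libraries together, Frzb 150 and Sfrp2 8.

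Antral granulosa markers (12 tested) were called in neither model by edgeR or DESeq2. In the ob model 5 of 12 had an unadjusted p under 0.05, all higher in ob/ob (Fshr, Cyp19a1, Inhba, Fst and Esr2), against 4.76% of all genes in this direction. For db/db there were 0. Fshr, the receptor for follicle-stimulating hormone, had a log2 fold change of 1.05 in ob/ob (SE 0.393, edgeR adjusted p = 0.584). Inha, Fst and Hsd17b1 were the most abundant of these markers. Of 10 ovulatory and cumulus genes, 2 were tested and 0 were called by edgeR or DESeq2, with 0 at an unadjusted p under 0.05. Areg and Ereg, the growth factors of ovulation, had 1 and 2 counts in all, while Adamts1, Btc and Tnfaip6 led the list by level. Of the theca and stroma, endothelial, immune cell, oocyte and surface epithelium markers, 0 were called by edgeR for either mutant. An unadjusted p under 0.05 was found for Cyp17a1 in db/db and for Pdgfra and Kdr, both lower, in ob/ob. There DESeq2 called Pdgfra, among 86 genes called. By mean level the leading markers were Ptch1, Cyp17a1 and Acta2 for theca and stroma, Egfl7, Pecam1 and Kdr for endothelium, and Lyz2, Cd68 and C1qb for immune cells. For oocytes they were Gdf9, Bmp15 and Zp2, and for surface epithelium Krt8, Krt18 and Upk3b.

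The same genes were then compared between the control groups and between the mutants in a single fit of all 14 libraries. These contrasts did not choose the genes, but they use the same control libraries, and model and colony cannot be told apart in them. Between CT ob and CT db, edgeR called 6.63% of 12586 genes, and DESeq2 called 1563 genes of the same set. Nothing is read from 1 call among the 7 members tested, which was Akr1c14 by both tools. It was lower in CT ob, as were 4.39% of all genes, with a log2 fold change of -1.04 (SE 0.239, edgeR adjusted p = 0.0247), and the groups did not overlap, which 11.4% of all genes showed in this direction. Over the fits that each lacked 1 library, the change lay between -1.28 and -0.94, and the call was lost without het_51 (edgeR adjusted p = 0.0716), het_75 (edgeR adjusted p = 0.0526), obHet_65 (edgeR adjusted p = 0.0550) or obHet_68 (edgeR adjusted p = 0.0879). DESeq2 gave an adjusted p of 0.000555.

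Akr1c18 had a log2 fold change of 0.01 between the control groups (SE 0.902, edgeR adjusted p = 0.995). This value rests on 1 high library in each group, since Akr1c18 gave -1.72 without obHet_65 (edgeR adjusted p = 0.283) and 1.47 without het_69 (edgeR adjusted p = 0.293). Sfrp4 gave 1.36 (SE 0.948, edgeR adjusted p = 0.369) although the median CPM was lower in CT ob (4.08) than in CT db (26.4). Without obHet_65 the direction turned, and Sfrp4 was lower in CT ob (log2 fold change -3.25 by edgeR, adjusted p = 0.0186). That fit keeps only obHet_60 and obHet_68 in CT ob, where Sfrp4 was low, and 838 genes were called in it. No support is therefore drawn from this p. Ptgfr turned in the same way, from 1.46 (SE 1.176, edgeR adjusted p = 0.445) to -4.24 (edgeR adjusted p = 0.0525) without obHet_65, and the same limit holds. Akr1c13 gave 1.02 (SE 0.665, edgeR adjusted p = 0.332), Akr1cl -0.28 (SE 0.236, edgeR adjusted p = 0.457) and Parm1 -0.73 (SE 0.467, edgeR adjusted p = 0.323). Of all lists, Fshr alone was called by edgeR, and was lower in CT ob, with a log2 fold change of -1.72 (SE 0.349, edgeR adjusted p = 0.0163). DESeq2 also called Pgrmc1, Ptges3, Cdkn1b, Fst and Esr2 lower and Egfl7 higher, among its 1563 calls in this contrast.

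Between ob/ob and db/db, 0.0159% of genes were called and 0 of the 7 members tested by edgeR. Among them 1, Akr1c13, had an unadjusted p under 0.05 (8.18% of all genes) and was called by DESeq2. Akr1c13 had the largest difference of the members tested, with a log2 fold change of 3.35 (SE 0.849, edgeR adjusted p = 0.322), and every ob/ob library lay above every db/db library, as for 5.53% of all genes in this direction. DESeq2 gave an adjusted p of 0.0358 for it and called 72 genes in this contrast. Akr1c13 had 0 to 4 counts in db/db and failed the filter in the fit of the db model. It entered the fit of all libraries through the groups where it was higher, so no support is drawn from either test. Over the fits that each lacked 1 library, the change lay between 2.58 and 3.81, with edgeR adjusted p-values of 0.201 to 0.886. All 8 oocyte markers were also above db/db in every ob/ob library (log2 fold changes 2.97 to 4.43, unadjusted p under 0.05 for each, 0 called by edgeR), with summed levels of 121 to 676 CPM against 5.97 to 52.4. DESeq2 called Npm2 among them higher, and the prostaglandin E receptor gene Ptger2 lower. Within ob/ob, Akr1c13 was at 7.77, 1.94 and 14.7 CPM in obHOM_106, obHOM_41 and obHOM_50, with oocyte sums of 676, 193 and 121 CPM. Among the controls, Akr1c13 was at 16.6 CPM in het_37 (oocyte sum 3.66 CPM) and at 14.6 CPM in obHet_60 (oocyte sum 1045 CPM). The part of oocyte RNA in the level of Akr1c13 was not tested. Akr1c18 gave 0.04 (SE 1.332), Sfrp4 -0.79 (SE 1.724) and Akr1c14 0.02 (SE 0.232), with edgeR adjusted p-values of 0.999, 0.964 and 0.993. Ptgfr, at 0 or 1 count in all these libraries, gives no usable fold, and Akr1cl and Parm1 gave -0.31 (SE 0.236) and -0.60 (SE 0.458), with edgeR adjusted p-values of 0.846 and 0.856.

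Likeness of pattern was described by Pearson's r of log2 CPM over the 14 libraries, which share groups and depth. The members were chosen with their levels in mutants and controls known. Likeness between members therefore partly restates that choice, and nothing is read from it. Across all tested genes, Ptgfr was most like Sfrp4 (r = 0.957, Spearman's rho = 0.932), and r was 0.931 over the 13 libraries without obHet_65. Akr1c18 was also most like Sfrp4 (r = 0.830, rho = 0.701, and r = 0.759 without obHet_65). After the members, the genes most like Ptgfr were Zbtb40 (r = 0.841), Lipg (r = 0.834), Rgs9 and Entpd1. For Sfrp4 they were Zbtb40 (r = 0.870), Cited1 (r = 0.847) and Lipg (r = 0.825). For Akr1c18 they were Ercc6l (r = 0.798), Trib2 (r = 0.793), Aig1 and Snx14. Cited1, a transcriptional co-regulator, was at 14.3 to 53.8 CPM in CT db, 3.87 to 12.2 in db/db, 17.8 to 151 in CT ob and 1.66 to 13.6 in ob/ob. Parm1 followed other genes, led by Greb1 (r = 0.885), an oestrogen-induced gene, Paqr3 (r = 0.883), Irs1 (r = 0.882), Ccnl1 and Fkbp7.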

How the data were processed

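The samples were polyadenylated RNA of GCs (bead capture by oligo-dT, amplified cDNA without molecular identifiers, Nextera XT libraries). The authors deposited whole-number counts per gene without normalization. The methods name cutadapt, STAR, GRCm39 and featureCounts, while the submitters' processing notes name Trim Galore 0.6.2, HISAT2 2.1.0 and GRCm38. Strand setting and the handling of reads with several matches are not given in the sources used here. Of 55414 identifiers, 98.8% had a symbol in the GRCm39 annotation used. Columns were assigned to groups by the study's sample table.

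From the counts, edgeR 4.0.16 (R 4.3.3) gave TMM-scaled CPM, log2 CPM with a prior count of 2, and quasi-likelihood tests after filterByExpr (minimum count 10, total 15) with Benjamini-Hochberg adjustment, called at 0.05. Mutants were fitted with the controls of their model, and the other contrasts in a fit of all 14 libraries. Depth was 2204686 to 8367593 counts per library, and intervals and floors cover counting error only. The test was also run on counts simulated with its own fitted spread, which cannot show how it handles single libraries far from the others. No outcome of that run is used here.

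The 8 genes and all lists were chosen with earlier results of these data known. Named were the members, from each list the called genes and the 3 most abundant, and the 5 genes most like 4 members. Genes with an unadjusted p under 0.05, receptors and markers named otherwise were chosen after their values were seen. Alternatives were DESeq2 1.42.0, RLE size factors, no filter, library size alone, a prior count of 0.5 and leaving out each library. The likeness without obHet_65 was added after seeing the data.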

Additional observations from a re-analysis of the deposited data

Results flagged for a closer look

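A library far from the others of its group was looked for in the 15 groups of 4 libraries in which a member had counts. For normally spread values, chance marks about 1 group in 20. Many of these CPM rest on low counts, for which that rate need not hold. The members were also chosen with their levels known, so nothing is read from the number of marks. Ptgfr in CT db stood out for library het_51 at 19.2 CPM, Akr1c18 in CT db for library het_69 at 37.4 CPM, and Akr1c13 in CT db for library het_37 at 16.6 CPM. Each is a different library. Ptgfr in db/db stood out for library HOM_81 at 0.312 CPM, which is 1 count beside 0 in the other libraries. Groups of 3 libraries were not examined in this way.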

How the results depend on the processing

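The count of called genes depended on the tool and the filter. With DESeq2 it was 44 in place of 1 for db/db against CT db, 86 in place of 0 for ob/ob against CT ob, 1563 in place of 834 for CT ob against CT db, and 72 in place of 2 for ob/ob against db/db. Without the filter on low counts it was 270, 359, 1727 and 535 in the same order, and the cause was not tested. RLE size factors gave 1, 0, 822 and 2. Leaving out single libraries gave counts between 1 and 4, between 0 and 0, between 112 and 1196, and between 2 and 3. Without HOM_68 the first was 4. Without het_51, het_69, het_75, obHet_60 or obHet_68 the count between the control groups was 138, 482, 201, 376 and 112.

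The members' differences of mean log2 CPM moved by less than the spread between replicates under RLE size factors, library size alone and every left-out library. That spread includes the library far from the others, such as obHet_65, so this does not show that a difference is stable. Without obHet_65 the difference in ob/ob shrank from -2.94 to -0.83 for Ptgfr and from -3.43 to -1.44 for Sfrp4. A prior count of 0.5 moved 4 of 32 by more than the spread (Ptgfr and Akr1c12, in db/db against CT db and ob/ob against db/db). Library size alone left 3 members highest in the same CT db library and made them 4 in CT ob. Without the filter, Ptgfr and Sfrp4 were called higher in CT ob (edgeR adjusted p = 0.0146 and 7.74e-05), as was Akr1c13 in ob/ob against db/db (edgeR adjusted p = 2.89e-07). For Ptgfr and Sfrp4 the CT ob mean was set by obHet_65, at 67.5 and 198 CPM. Their median CPM was lower in CT ob (1.02 and 4.08) than in CT db (5.07 and 26.4). DESeq2 gave no adjusted p for Ptgfr or Sfrp4 in the comparisons of the models.

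No paired analysis was possible because the library names carry no replicate number of the labels, so the planned fits with a replicate block were not run. Counts of 0 to 4 in db/db limit the folds of Ptgfr, Akr1c18 and Akr1c13 there.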
